A study of Mus musculus with 8 samples.

Results

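The inflammasome and pyroptosis genes described here are Nlrp3, Nlrc4, Aim2, Pycard, Casp1, Casp4, Gsdmd and Il18, 8 genes chosen by name. Peaks of 8 deposited ATAC-seq lists were merged where they overlapped by at least 1 base, and a merged region belonged to a gene when that gene's body was the nearest of 21887 protein-coding genes, within 100 kb. This gave the 8 genes 56 of the 87260 regions of the series. Of the 56, 47 overlapped the gene itself and the farthest lay 23.9 kb away. Of the 47, 5 were equally near another gene, 3 of them to Cadm3, 1 to Bco2 and 1 to Tex12.

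An inflammasome is a protein complex that forms in the cytosol of macrophages when a sensor detects a microbe or cell damage. The sensor recruits the adaptor ASC, encoded by Pycard, and with it the protease caspase-1, which cuts the precursors of IL-1beta and IL-18 and the pore-forming protein gasdermin D. Mouse caspase-11, encoded by Casp4, binds LPS in the cytosol directly and cuts gasdermin D itself. Gasdermin D pores release the cytokines and lead to pyroptosis, a lytic cell death. In macrophages an LPS signal through TLR4 is known as priming, because it raises the expression of Nlrp3 before a later signal assembles the complex.

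ATAC-seq maps open chromatin with a transposase that inserts adapters into accessible DNA. The cells were mouse bone marrow-derived macrophages, grown for 7 days in medium with 25% medium conditioned by L929 fibroblasts, a source of the growth factor M-CSF. The comparisons address how LPS and the loss of NFAT5, a transcription factor known for the response to high salt, bear on open chromatin in these cells. There were 4 groups of 2 libraries: Nfat5 knockout (KO) with LPS, KO untreated, wild type (WT) with LPS and WT untreated, where LPS was E. coli lipopolysaccharide at 0.3 ng/ml for 2 h. The labels call the replicates biological but do not say that they came from separate animals, so p-values measure only the spread between these libraries. The labels used here give neither the deleted part of Nfat5 and the cells that lack it nor the strain, sex and age of the mice.

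The KO lists held 54911 and 54027 peaks with LPS and 56346 and 59811 untreated. The WT lists held 57691 and 55506 peaks with LPS and 60117 and 59218 untreated. Peaks covered 26.2 to 28 Mb in LPS libraries and 29.6 to 31.2 Mb in untreated ones, and the depth of each library is unknown. At Nfat5 itself, 4 of 7 regions were called in all 8 libraries, with 2273 to 3075 called bases in KO and 2140 to 2523 in WT. KO libraries called 5 or 6 of the 7 regions and each WT library 4, and since the deleted part is not given, this checks no label. All 10 macrophage markers had a region called in all 8 libraries. Cd3e, Cd3g, Cd8a, Cd79a, Cd79b, Pax5 and Elane had no peak. Markers of other cells with a region in all 8 lists were 2 of 6 for T cells (Cd4 and Lck), 1 of 5 for B cells (Ms4a1), 3 of 7 for neutrophils (S100a8, S100a9 and Ltf) and 3 of 6 for fibroblasts (Pdgfra, Pdgfrb and Dcn). Summed called bases of the T cell markers were 833 to 1514 with LPS and 1635 to 2491 untreated, and those of the neutrophil markers 1971 to 2687 in KO and 2901 to 3292 in WT, without overlap. The part of these markers in the results was not tested.

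Most of the open chromatin of the inflammasome genes was already called in untreated macrophages of both genotypes. Of the 56 regions, 27 (48.2%) were called in all 8 libraries, beside 41.3% of all regions of the series, and 6 in a single library. LPS libraries called 42 to 46 of the 56 regions and untreated libraries 37 to 42. KO libraries called 38 to 46 and WT libraries 37 to 46, so the genotypes overlapped widely. Of the 27 regions called everywhere, 13 belonged to Aim2, 7 to Nlrp3, 2 each to Nlrc4 and Casp4, 1 each to Casp1, Gsdmd and Il18, and none to Pycard.

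**Figure D1:**
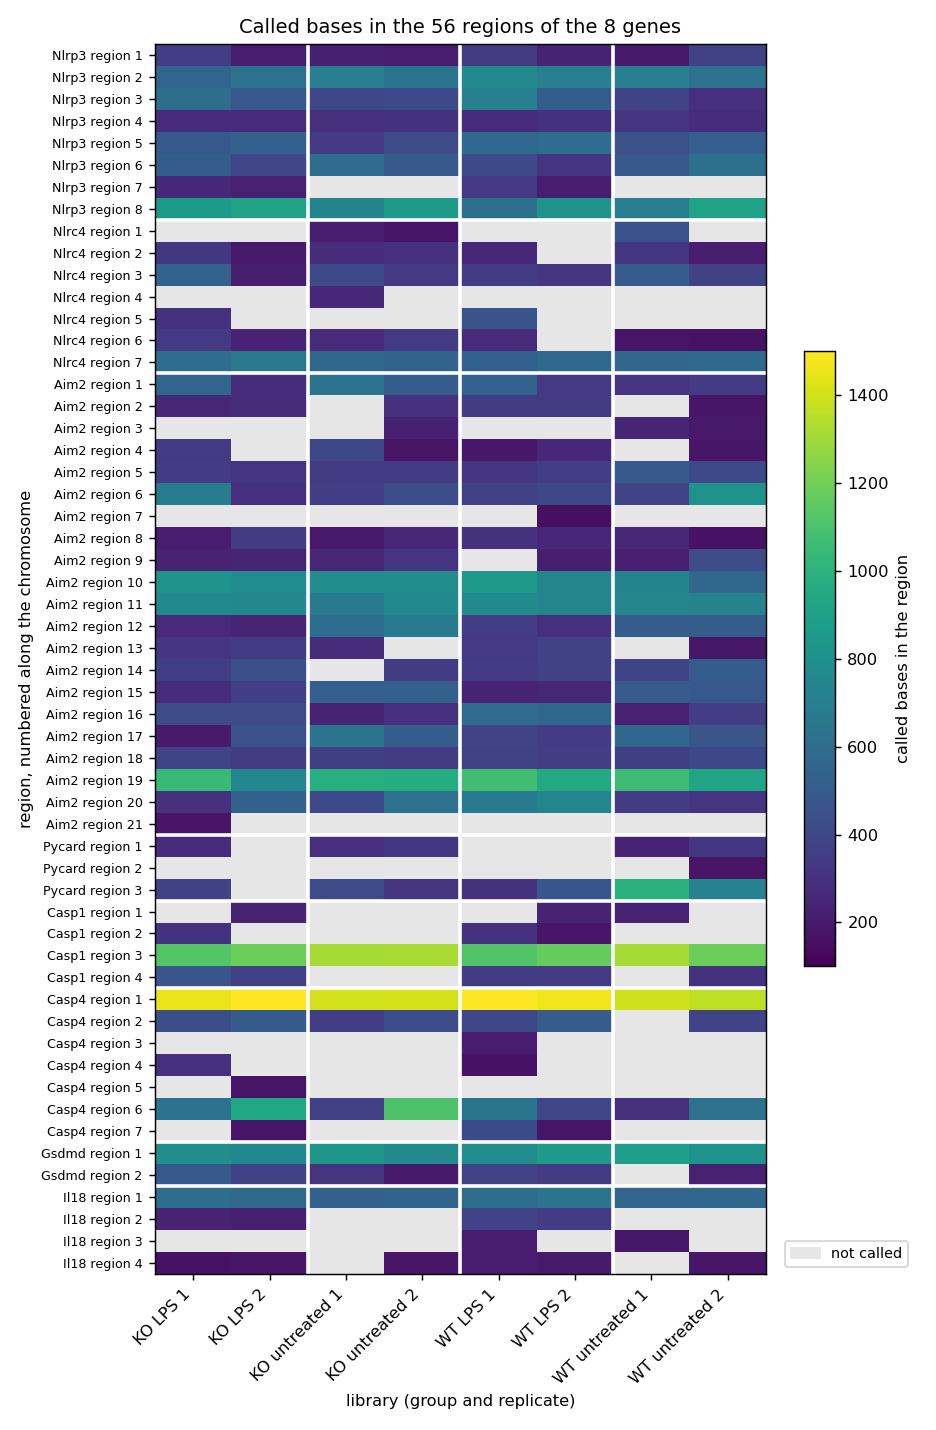
Called bases (colour) of the 56 regions (rows, numbered along the chromosome within each gene) in each of the 8 libraries (columns); grey marks a region that was not called, and white lines divide genes and groups. Nlrp3 region 7 and Il18 region 2 are coloured in the 4 LPS libraries and grey in the 4 untreated ones.

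The promoters of Nlrp3, Aim2, Casp4 (window 1) and Casp1 are shown with the motifs found in them. The windows of Nlrc4, Il18 and Pycard are not shown, and those of Nlrc4 and Il18 held no match. Each window holds 250 bases before and 50 from the start of transcription, from the RefSeq table on build GRCm38.p6, which gave 9 windows for 7 of the genes and none for Gsdmd. Capitals mark motif matches on either strand. Nlrp3 window 1 is chr11:59541319-59541618 (plus strand), with a match to the NF-kB (kB) consensus and then 1 to a loose NFAT5 pattern. This pattern is looser than the full NFAT5 element, so its match does not show that the promoter holds an NFAT5 site. Nlrp3 window 2 is chr11:59542436-59542735 (plus strand), with 3 matches to GAGGAA, the PU-box bound by the macrophage factor PU.1. Aim2 is chr1:173420354-173420653 (plus strand), with 2 PU-boxes. Casp4 window 1 is chr9:5308599-5308898 (plus strand), with kB matches on both strands that overlap each other in 1 block. Casp1 is chr9:5298267-5298566 (plus strand), with 1 PU-box on the reverse strand.
Nlrp3 window 1: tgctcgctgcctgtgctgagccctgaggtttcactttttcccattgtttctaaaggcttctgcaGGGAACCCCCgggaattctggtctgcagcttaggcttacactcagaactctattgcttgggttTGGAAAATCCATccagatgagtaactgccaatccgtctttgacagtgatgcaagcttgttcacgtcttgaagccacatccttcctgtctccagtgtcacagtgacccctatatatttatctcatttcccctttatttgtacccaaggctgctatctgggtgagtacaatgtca
Nlrp3 window 2: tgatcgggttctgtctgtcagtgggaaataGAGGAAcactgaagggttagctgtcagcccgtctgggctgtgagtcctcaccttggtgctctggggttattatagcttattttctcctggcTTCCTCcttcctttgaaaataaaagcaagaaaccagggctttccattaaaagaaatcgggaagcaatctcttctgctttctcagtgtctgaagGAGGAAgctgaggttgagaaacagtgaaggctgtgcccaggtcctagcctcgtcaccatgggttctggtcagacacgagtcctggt
Aim2: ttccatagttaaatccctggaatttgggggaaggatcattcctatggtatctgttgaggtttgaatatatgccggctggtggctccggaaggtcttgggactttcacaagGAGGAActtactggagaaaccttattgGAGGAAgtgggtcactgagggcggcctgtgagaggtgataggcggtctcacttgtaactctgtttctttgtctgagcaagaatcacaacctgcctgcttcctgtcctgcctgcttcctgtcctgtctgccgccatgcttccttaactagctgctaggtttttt
Casp4 window 1: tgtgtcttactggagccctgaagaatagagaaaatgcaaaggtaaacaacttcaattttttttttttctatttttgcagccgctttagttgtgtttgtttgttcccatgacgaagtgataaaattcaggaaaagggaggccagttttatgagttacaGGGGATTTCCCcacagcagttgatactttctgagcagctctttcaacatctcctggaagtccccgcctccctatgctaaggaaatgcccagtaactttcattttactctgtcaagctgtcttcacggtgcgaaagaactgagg
Casp1: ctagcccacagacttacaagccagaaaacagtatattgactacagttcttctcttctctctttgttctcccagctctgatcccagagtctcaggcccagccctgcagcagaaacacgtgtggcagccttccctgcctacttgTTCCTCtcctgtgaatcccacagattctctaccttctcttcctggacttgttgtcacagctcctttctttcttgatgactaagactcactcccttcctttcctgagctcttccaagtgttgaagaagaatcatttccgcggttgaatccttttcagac

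Of the 9 windows, 3 held a kB match (at Nlrp3 and Casp4) and 4 a PU-box (at Nlrp3, Casp1, Pycard and Aim2). The loose NFAT5 pattern was found in 1 (Nlrp3). The 2 Casp4 windows overlap and hold the same kB site, so they are not separate windows. Neither the AP-1 motif TGANTCA nor the interferon-type motif GAAANNGAAA was found in these windows. Of 32817 promoter windows of the same length, 4.5% held a kB match, 28.3% a PU-box, 10.4% the loose NFAT5 pattern, 7.81% AP-1 and 3.43% GAAANNGAAA. A match describes letters, and binding was not measured.

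Nlrp3 encodes the sensor that responds to potassium efflux, crystals and many other forms of cell stress. Its body spans 25.4 kb (chromosome 11, 59541569 to 59566955, GRCm38), and of its 8 regions 7 were called in all 8 libraries. The eighth, inside the gene 2.44 kb from its start (59544013 to 59544342), was called in every LPS library and in no untreated one. It spanned 258 and 230 called bases in KO LPS libraries, against no call in either KO untreated library, and 330 and 208 bases in WT LPS libraries, against no call in either WT untreated library. The region therefore separated the treatments in both genotypes, and the KO values lay within the range of the WT values.

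The region 6.4 kb upstream of Nlrp3 (59534460 to 59535171) was called in all libraries and was wider with LPS in each genotype. It spanned 602 and 478 bases in KO LPS libraries, against 401 and 412 in KO untreated ones. In WT it spanned 712 and 512 bases with LPS, against 385 and 287 untreated. All 4 LPS values lay above all 4 untreated values. On the log2 scale the difference was 0.63 (SE 0.16) and did not pass the test across all regions (limma, adjusted p = 0.107).

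Nlrp3 has 2 starts in the promoter table, 1.12 kb apart, and each had its own region. The region over window 1 (59541274 to 59541879) spanned 488 and 533 bases in KO LPS libraries, against 336 and 423 in KO untreated ones, and 577 and 601 in WT LPS libraries, against 447 and 517 in WT untreated ones. The region over window 2 (59542321 to 59542943) spanned 512 and 399 bases in KO LPS libraries, against 591 and 499 in KO untreated ones, and 407 and 314 in WT LPS libraries, against 485 and 615 in WT untreated ones. The values ran in opposite directions at the 2 starts, and over both genotypes together the treatments overlapped at each. Within a genotype they did not overlap over window 1, and over window 2 they overlapped in KO but not in WT. The log2 differences were 0.36 (SE 0.11, limma adjusted p = 0.135) over window 1 and -0.44 (SE 0.15, adjusted p = 0.177) over window 2, and neither passed.

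The other Nlrp3 regions differed less between treatments. The widest, inside the gene (59554044 to 59554981), spanned 861 and 904 bases in KO LPS libraries, against 730 and 863 in KO untreated ones, and 617 and 812 in WT LPS libraries, against 697 and 906 in WT untreated ones. Its log2 difference was -0.01 (SE 0.14). The 3 remaining regions, 2.83 to 15.9 kb upstream, had log2 differences between -0.08 and 0.21.

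Summed over all its regions, Nlrp3 had 3908 and 3648 called bases in KO LPS libraries, against 3270 and 3348 in KO untreated ones. In WT it had 4026 and 3680 with LPS, against 3227 and 3600 untreated. The LPS libraries averaged 3815.5 ± 182 bases and the untreated libraries 3361.25 ± 167 (SD, n = 4 each), without overlap. The two-sided exact permutation test gave p = 0.0286, the smallest that 70 arrangements of 4 against 4 allow. Adjusted over 17182 genes it was 0.184, which is also the smallest adjusted value any gene reached, so no gene of the series could be called on this measure.

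**Figure D2:**
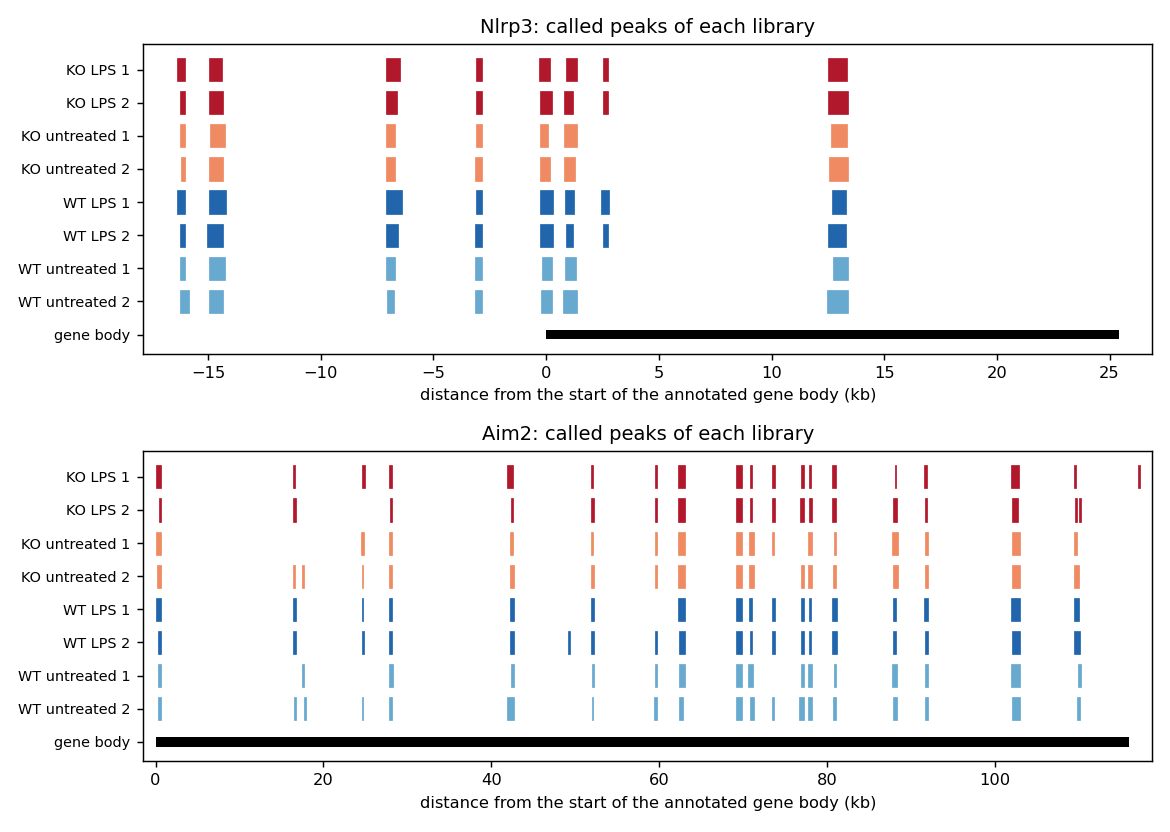
Called peaks of each library (rows) at Nlrp3 and Aim2, against the distance from the start of the annotated gene body in kb, with the gene body as a black bar. A peak 2.44 kb inside Nlrp3 appears in the 4 LPS libraries alone, and the peaks 71.1 kb into the Aim2 body, at its promoter window, are narrower in the 4 LPS libraries.

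Nlrc4 encodes the sensor that, with NAIP proteins, detects bacterial flagellin and secretion-system proteins. Its body lies at chromosome 17, 74426255 to 74459144. The region over its start (74458765 to 74459439) was called in all libraries and differed little, with 599 and 662 bases in KO LPS libraries, against 566 and 546 in KO untreated ones, and 536 and 580 in WT LPS libraries, against 564 and 584 in WT untreated ones. The log2 difference was 0.07 (SE 0.08, limma adjusted p = 0.633).

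The other 6 Nlrc4 regions were weaker and less regular. The region at 74430490 to 74430943 was called in no LPS library of either genotype, and it was lost with LPS in KO. Untreated, it spanned 216 and 177 bases in KO, but 454 bases in WT replicate 1 with no call in WT replicate 2. This loss ended under a rule that a call covers at least 50% of the region. The gene summed to 2117 and 1314 bases in KO LPS libraries, against 2001 and 1691 in KO untreated ones, and 1881 and 904 in WT LPS libraries, against 2030 and 1337 in WT untreated ones. The replicates of each genotype with LPS lay further apart than the treatments did (exact permutation p = 0.514).

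Aim2 encodes the sensor of cytosolic DNA. Its annotated body is long (116 kb, chromosome 1, 173349547 to 173466040), so it holds 21 regions, and the start in the promoter table lies 71.1 kb into it. The region over that promoter window (173420214 to 173420900) spanned 270 and 244 bases in KO LPS libraries, against 600 and 680 in KO untreated ones. In WT it spanned 352 and 286 bases with LPS, against 506 and 515 untreated. Every LPS library lay below every untreated library, in each genotype on its own as well. LPS narrowed it by a log2 value of -1.0 (SE 0.10), to 0.5 of the untreated width (limma, adjusted p = 0.0244).

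The region 6.67 kb downstream of that start (173427270 to 173427818) also narrowed with LPS. It spanned 281 and 359 bases in KO LPS libraries, against 517 and 532 in KO untreated ones, and 236 and 250 in WT LPS libraries, against 501 and 484 in WT untreated ones. The log2 difference was -0.87 (SE 0.10), to 0.547 of the untreated width (limma, adjusted p = 0.0282), and the treatments did not overlap. These were the 2 of the 27 tested regions that passed. Both calls ended without any single library, with adjusted p between 0.0531 and 0.0901 at the start and between 0.0503 and 0.096 downstream, while the log2 differences stayed between -1.08 and -0.93 and between -0.96 and -0.78.

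The size of these changes in the 2 genotypes was not told apart by the test. At the Aim2 start the log2 difference with LPS was -1.32 (SE 0.14) in KO and -0.69 (SE 0.14) in WT, and the difference between them was -0.63 (SE 0.20, limma adjusted p = 0.648). Downstream it was -0.72 (SE 0.14) in KO and -1.02 (SE 0.14) in WT, and the difference between them was 0.30 (SE 0.20, adjusted p = 0.9). The larger value was thus in KO at the start and in WT downstream.

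Not all Aim2 regions narrowed. The region at 173430174 to 173430760 spanned 424 bases in both KO LPS libraries, against 235 and 292 in KO untreated ones, and 587 and 568 in WT LPS libraries, against 227 and 357 in WT untreated ones. All LPS values lay above all untreated ones, with a log2 difference of 0.86 (SE 0.16) that missed the threshold (limma, adjusted p = 0.0603). A further region at 173437344 to 173438006 spanned 199 and 448 bases in KO LPS libraries, against 636 and 515 in KO untreated ones, and 389 and 341 in WT LPS libraries, against 570 and 467 in WT untreated ones. There the LPS values lay below the untreated ones (log2 -0.72, SE 0.26, adjusted p = 0.197). The other 9 Aim2 regions called in all libraries had log2 differences between -0.24 and 0.38, with overlapping treatments.

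Among these 9 Aim2 regions, several had log2 differences of opposite sign in KO and WT. The genotypes lay furthest apart at the region at 173458981 to 173459836. It spanned 297 and 527 bases in KO LPS libraries, against 407 and 629 in KO untreated ones, and 673 and 738 in WT LPS libraries, against 341 and 313 in WT untreated ones. The treatments overlapped in KO (log2 -0.35, SE 0.32) and did not in WT (log2 1.11, SE 0.32). Without KO LPS replicate 1 the KO value was 0.06. The difference between the genotypes was -1.46 (SE 0.45) and did not pass (limma, adjusted p = 0.646).

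A weak region at 173367027 to 173367420, which also lies in Cadm3, was lost with LPS in WT. It was called in no LPS library, in both WT untreated libraries (247 and 198 bases) and in KO untreated replicate 2 (225 bases). Over all regions Aim2 summed to 7979 and 7171 bases in KO LPS libraries, against 7665 and 8417 in KO untreated ones, and 8060 and 8023 in WT LPS libraries, against 7340 and 8183 in WT untreated ones. With the full lists the sums overlapped, and LPS minus untreated was -93 bases (exact permutation p = 0.8). With lists cut to their widest peaks the difference was -813.5 bases (exact permutation p = 0.0286, adjusted 0.282). Relative to the sequence each library covered, the difference was 782 bases (exact permutation p = 0.0571, adjusted 0.325). The sign and size of the Aim2 sum difference thus depended on the setting, and none of these values passed after adjustment.

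**Figure D3:**
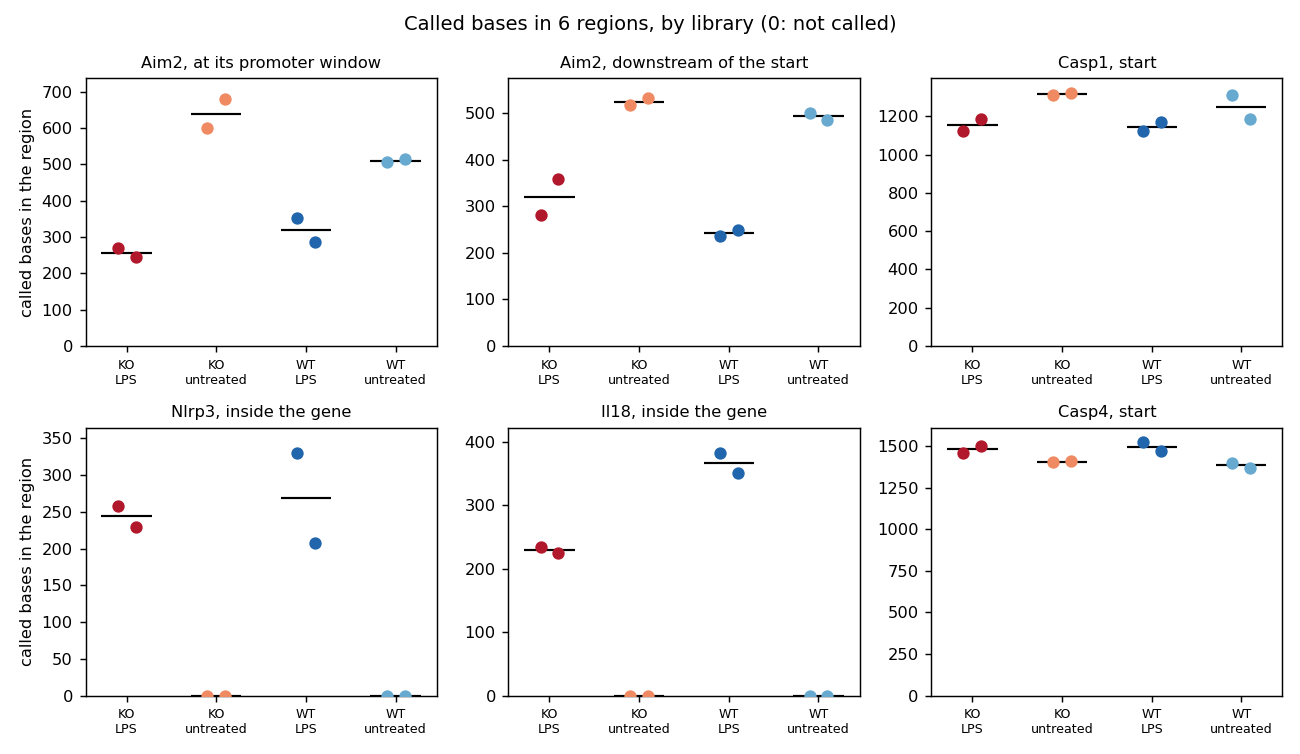
Called bases in 6 regions of the inflammasome genes by library (points) with the mean of each group of 2 (bars); 0 means not called. Both Aim2 regions and the Casp1 start lie lower with LPS in both genotypes, the Casp4 start lies slightly higher, and the regions inside Nlrp3 and Il18 were called with LPS alone.

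Pycard encodes ASC, the adaptor between sensors and caspase-1. It is a short gene (2.5 kb, chromosome 7, 127991373 to 127993867), and none of its 3 regions was called in all libraries. The region over its start (127992961 to 127993956) spanned 370 bases in KO LPS replicate 1 with no call in replicate 2, against 428 and 315 in KO untreated libraries. In WT it spanned 298 and 475 bases with LPS, against 996 and 723 untreated. The untreated WT libraries were the highest of all.

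The Pycard region near the other end of the gene (127991721 to 127992190) was lost with LPS in WT. It was called in neither WT LPS library, against 232 and 326 bases in WT untreated ones, while KO had 280 bases and no call with LPS, against 286 and 326 untreated. The loss ended under the rule of at least 50% coverage. Over the gene, called bases were 650 and 0 in KO LPS libraries, against 714 and 641 in KO untreated ones, and 298 and 475 in WT LPS libraries, against 1228 and 1221 in WT untreated ones. In WT every LPS value lay below every untreated one, but over both genotypes the treatments overlapped (355.75 ± 277 bases with LPS and 951 ± 317 untreated, SD, n = 4 each, exact permutation p = 0.0571, adjusted 0.253).

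Casp1 and Casp4 stand next to each other on chromosome 9, 1567 bases apart. Casp1 (5298517 to 5307281) encodes caspase-1, the protease of the canonical inflammasome. The wide region over its start (5298129 to 5299449) spanned 1123 and 1186 bases in KO LPS libraries, against 1310 and 1321 in KO untreated ones, and 1121 and 1171 in WT LPS libraries, against 1310 and 1188 in WT untreated ones. All LPS values lay below the untreated ones, by a small amount (log2 -0.16, SE 0.07, limma adjusted p = 0.283). The median over all regions tested was -0.11.

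A second region inside Casp1 (5299871 to 5300389) was called in all 4 LPS libraries and was gained with LPS in KO. It spanned 471 and 370 bases in KO LPS libraries, against no call in KO untreated ones, and 341 and 343 in WT LPS libraries. WT untreated replicate 1 had no call there, but replicate 2 had 307 bases, so that WT did not meet the rule. A distant region 22.8 kb away (5275384 to 5275764) was gained in WT, with 301 and 187 bases in WT LPS libraries, against no call in WT untreated ones. KO LPS replicate 1 also called it, with 306 bases, and no other KO library did.

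Summed over its regions, Casp1 had 1900 and 1791 bases in KO LPS libraries, against 1310 and 1321 in KO untreated ones. In WT it had 1763 and 1935 with LPS, against 1547 and 1495 untreated. The LPS libraries averaged 1847.25 ± 83.2 bases and the untreated libraries 1418.25 ± 121 (SD, n = 4 each), without overlap (exact permutation p = 0.0286, adjusted 0.184). The sum adds the regions called with LPS to a start region that was slightly narrower. When each list was cut to its widest 27013 peaks, the difference was -14.3 bases.

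Casp4 (5308849 to 5336791) encodes caspase-11, the LPS receptor of the non-canonical inflammasome. Its start region (5308053 to 5309578) is the widest of the 56. It spanned 1459 and 1499 bases in KO LPS libraries, against 1405 and 1408 in KO untreated ones, and 1523 and 1469 in WT LPS libraries, against 1399 and 1368 in WT untreated ones. All LPS values lay above the untreated ones, with a log2 difference of 0.09 (SE 0.07) that did not pass (limma, adjusted p = 0.455). The starts of the neighbouring caspase genes thus lay on opposite sides of their untreated values, but neither passed. The Casp1 value (-0.16) was near the median of all regions tested (-0.11). Of all regions called everywhere, 10.8% lay wholly below with LPS and 2.6% wholly above.

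A region just past the end of Casp4 (5337142 to 5337634, 0.351 kb away) was gained with LPS in WT, with 414 and 182 bases in WT LPS libraries, against no call in WT untreated ones. KO LPS replicate 2 had 177 bases there and no other KO library a call. This gain and that of the distant Casp1 region ended under the rule of at least 50% coverage. A region inside the gene (5333178 to 5334661) varied more between replicates than between groups, with 633 and 937 bases in KO LPS libraries, against 365 and 1107 in KO untreated ones, and 646 and 400 in WT LPS libraries, against 287 and 628 in WT untreated ones. Casp4 summed to 2815 and 3285 bases in KO LPS libraries, against 2129 and 2946 in KO untreated ones, and 3360 and 2558 in WT LPS libraries, against 1686 and 2376 in WT untreated ones. The treatments overlapped (3004.5 ± 383 bases with LPS and 2284.25 ± 525 untreated, SD, n = 4 each, exact permutation p = 0.0857, adjusted 0.304).

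Gsdmd encodes gasdermin D, the pore-forming protein that the inflammatory caspases cut. It had 2 regions (gene at chromosome 15, 75862144 to 75867408). The region that begins 13 bases inside the annotated gene body (75862157 to 75862658) spanned 488 and 374 bases in KO LPS libraries, against 313 and 200 in KO untreated ones. In WT it spanned 386 and 339 bases with LPS, against 229 in 1 untreated library and no call in the other. Every LPS value lay above every untreated one. Because WT untreated replicate 1 lacked a call, the region was not among the 27 tested.

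The other Gsdmd region, 4.4 kb from the gene (75856800 to 75857744), spanned 793 and 755 bases in KO LPS libraries, against 841 and 772 in KO untreated ones, and 788 and 852 in WT LPS libraries, against 883 and 813 in WT untreated ones (log2 -0.05, SE 0.08). Gsdmd summed to 1281 and 1129 bases in KO LPS libraries, against 1154 and 972 in KO untreated ones, and 1174 and 1191 in WT LPS libraries, against 883 and 1042 in WT untreated ones. These sums overlapped through 1 library of each treatment in KO (exact permutation p = 0.0571, adjusted 0.253).

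Il18 encodes the precursor of IL-18, which caspase-1 cuts to the active cytokine. The gene lies at chromosome 9, 50554700 to 50581841. A region 5.89 kb inside it (50560588 to 50560970), which also overlaps Tex12 and lies 249 bases from the Tex12 promoter window, was gained with LPS in both genotypes. It spanned 234 and 224 bases in KO LPS libraries, against no call in either KO untreated library, and 382 and 350 in WT LPS libraries, against no call in either WT untreated library. Both KO LPS values lay below both WT LPS values, a comparison of 2 against 2 whose smallest exact p is 0.333.

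The start of Il18, shared with Bco2 (50554559 to 50555218), spanned 598 and 583 bases in KO LPS libraries, against 530 and 552 in KO untreated ones, and 595 and 633 in WT LPS libraries, against 558 and 575 in WT untreated ones. The treatments did not overlap, with a log2 difference of 0.12 (SE 0.07, limma adjusted p = 0.358). Il18 summed to 1002 and 992 bases in KO LPS libraries, against 530 and 736 in KO untreated ones, and 1387 and 1185 in WT LPS libraries, against 749 and 761 in WT untreated ones. The LPS libraries averaged 1141.5 ± 186 bases and the untreated libraries 694 ± 110 (SD, n = 4 each), without overlap (exact permutation p = 0.0286, adjusted 0.184). Without the regions shared with Bco2 and Tex12 the difference was 101.5 bases, against 447.5 with them, and it no longer separated the treatments (exact permutation p = 0.343). With lists cut to their widest 27013 peaks it was 48.5 bases.

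**Figure D4:**
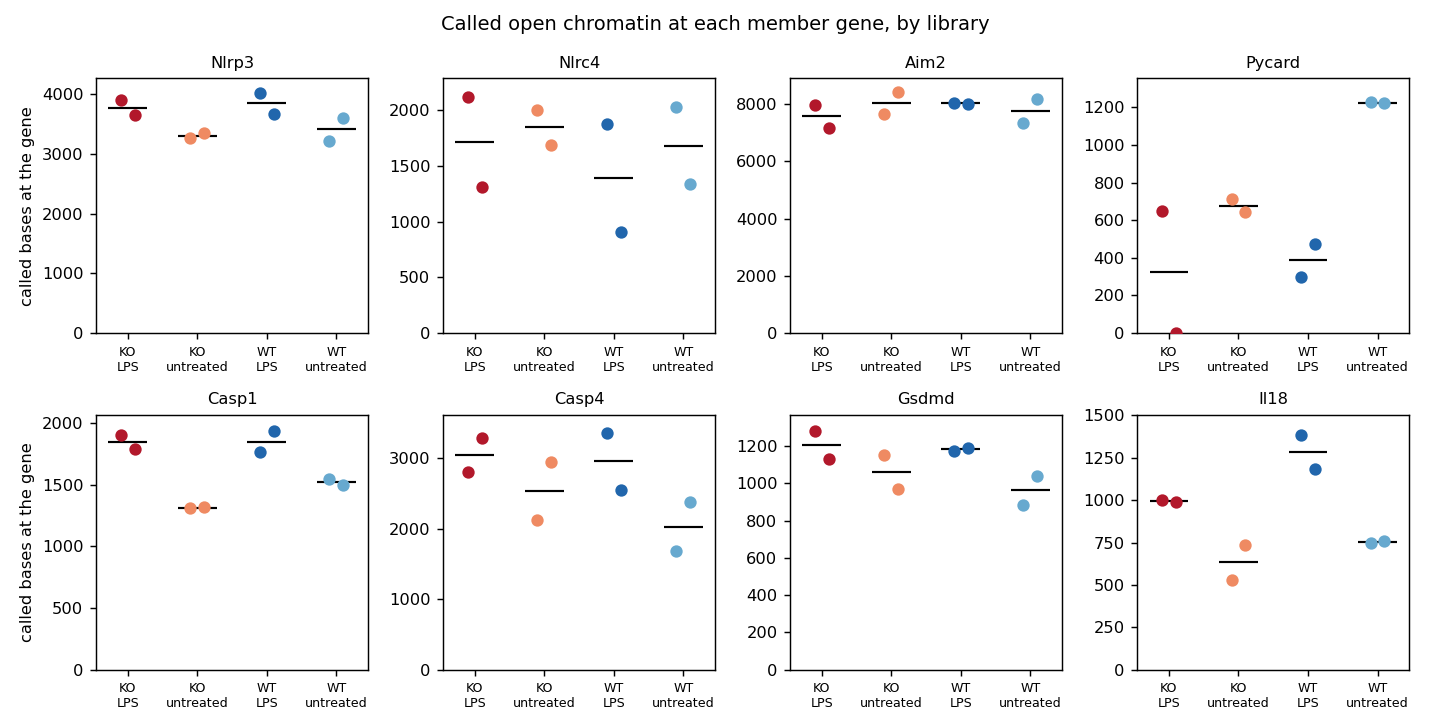
Called bases summed over the regions of each of the 8 genes, by library (points), with the mean of each group of 2 (bars). All 4 LPS libraries lie above all 4 untreated ones for Nlrp3, Casp1 and Il18, and the Pycard values of the untreated WT libraries, 1228 and 1221 bases, lie above all others.

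Across the 8 genes, gains with LPS were found at Nlrp3, Il18, Casp1 and Casp4, and losses at Nlrc4, Pycard and Aim2. In KO, 3 of the 56 regions were gained (5.36%, beside 2.56% of all regions) and 1 was lost (1.79%, beside 4.07%). In WT, 4 were gained (7.14%, beside 3.96%) and 2 were lost (3.57%, beside 5.06%). The 2 gained in both genotypes, at Nlrp3 and Il18, made 3.57% of the 56, beside 1.1% of all regions, and none was lost in both, beside 0.928%. These counts have no test, and a group of 2 gives little margin. Without KO untreated replicate 2, KO LPS replicate 1 or KO LPS replicate 2 there were 6, 6 and 7 gains in KO. Without WT untreated replicate 2 or WT LPS replicate 2 there were 11 and 7 gains in WT, and without WT LPS replicate 1 there were 4 losses. For losses in KO the counts were 2, 2 and 4 without KO untreated replicate 1, KO untreated replicate 2 and KO LPS replicate 1.

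Genotype alone set no inflammasome region apart. None of the 56 was called in both libraries of KO and neither of WT, untreated (beside 1.6% of all regions), with LPS (beside 2.03%) or in both treatments (beside 0.147%). Likewise none was called in both libraries of WT and neither of KO, untreated (beside 2.23%), with LPS (beside 3.17%) or in both (beside 0.231%). For 56 regions these shares amount to few regions, and with 1 library of a group left out up to 3 regions met one of the rules.

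Summed per gene, KO libraries averaged 3543.5 ± 293 bases and WT libraries 3633.25 ± 328 at Nlrp3 (SD, n = 4 each). At Pycard the means were 501.25 ± 336 bases in KO and 805.5 ± 489 in WT, and at Il18 815 ± 226 in KO and 1020.5 ± 318 in WT. The genotypes overlapped at all 8 genes, with exact permutation p between 0.343 and 0.771. Over all genes, all 4 KO values lay above all 4 WT values for 0.89% and below them for 4.06%.

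For the treatment, 3 of the 8 genes had LPS sums wholly above the untreated ones (Nlrp3, Casp1 and Il18), beside 1.7% of 17182 genes, and none wholly below, beside 13.8%. LPS lists covered less sequence than untreated lists over the genome, so the sums of these 3 genes ran against the covered sequence. Relative to the sequence each library covered, the difference at Nlrp3 was 859 bases, against 454.25 unscaled, and at Casp1 616, against 429. Per region, 4 of the 27 called in all libraries lay wholly above with LPS (14.8%, beside 2.6% of all such regions) and 4 wholly below (14.8%, beside 10.8%). Between genotypes none of the 27 lay wholly above, beside 1.08%, or wholly below, beside 2.97%.

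In the limma fit to the called width of the 36009 regions called in all libraries, LPS narrowed 514 (1.43%) and widened 177 (0.492%). With the libraries centred on their medians these counts were 161 narrower and 231 wider, or 58.9% wider. Among the 27 regions of the inflammasome genes 2 narrowed, both at Aim2 and under both scalings, and none widened. At unadjusted p under 0.05, 5 were narrower and 3 wider, 8 of 27 in all, beside 21.4% of all regions. The median log2 difference of the 27 was -0.01, beside -0.11 over all regions.

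Neither the genotype nor its interplay with LPS passed the test at any of the 27 regions. For KO minus WT, 0 passed (beside 0.00833% of all regions), with a smallest limma adjusted p of 0.44. An unadjusted p under 0.05 was reached by 1, beside 10.6% of all regions. For the difference between genotypes in the LPS contrast, 0 passed (beside 0.00278% of all regions), with a smallest limma adjusted p of 0.646. There 2 had an unadjusted p under 0.05, beside 6.63% of all regions. Within KO alone and within WT alone, 0 of the 27 passed for LPS, with smallest limma adjusted p of 0.0915 and 0.0575. Of all 36009 regions, 0 passed within KO, and within WT 24 were wider and 60 narrower. An unadjusted p under 0.05 was reached by 5 in KO and 7 in WT, beside 13.4% and 15.2% of all regions.

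**Figure D5:**
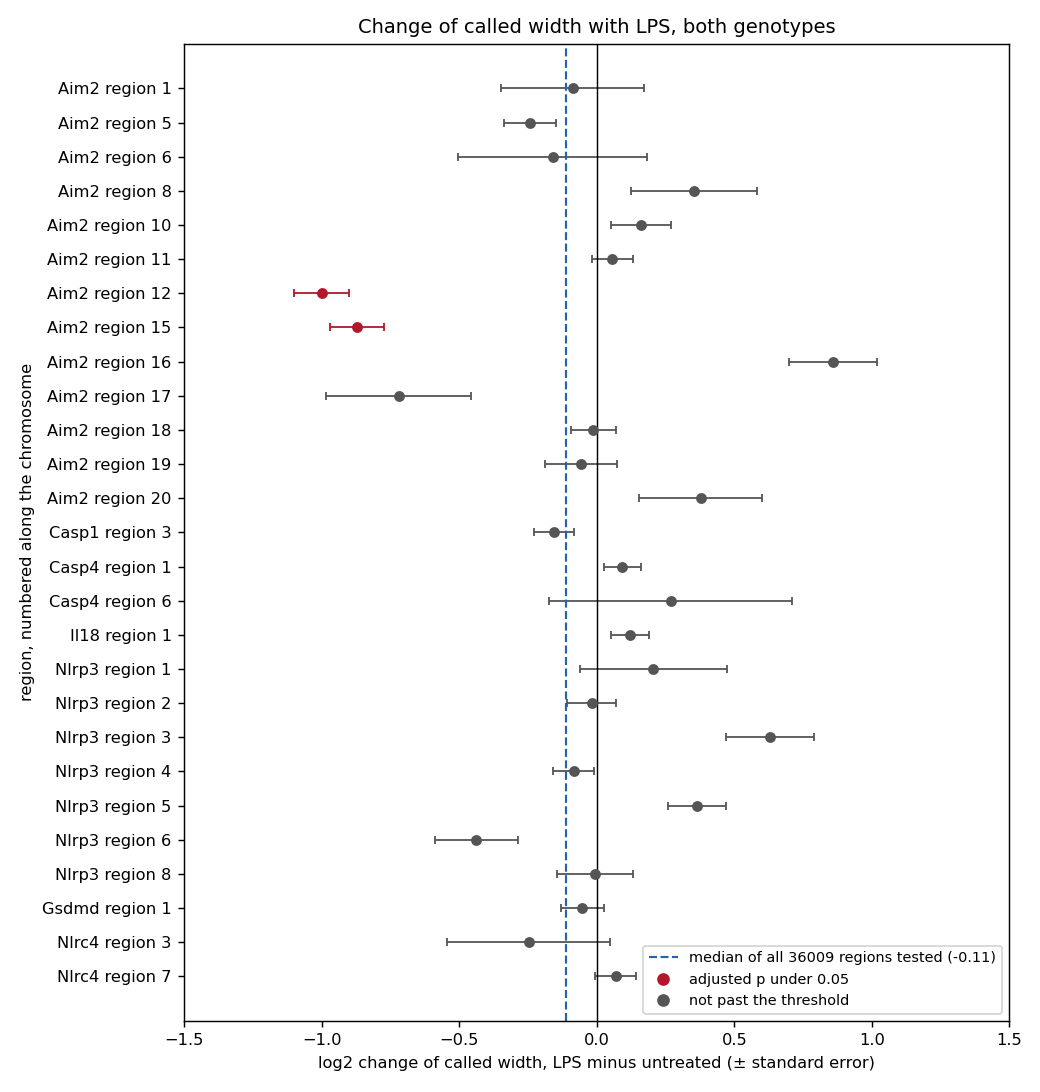
Log2 difference of called width, LPS minus untreated over both genotypes (points, with standard error), for the 27 regions called in all 8 libraries, numbered along the chromosome within each gene. Aim2 regions 12 and 15, in red, passed an adjusted p of 0.05 with -1.0 and -0.87, and the dashed line marks the median of all regions, -0.11.

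The wider pathway was described by 46 other genes of inflammasome and cell death biology, of which 45 had a region, 296 regions in all. Of these, 7 regions at 6 genes were gained with LPS in both genotypes (2.36%, beside 1.1% of all regions), and 3 at 2 genes were lost in both (1.01%, beside 0.928%). The gains included genes of priming (2 in Nfkb1, 1 each in Tlr4 and Nek7), Gbp7 and Ninj1. None of the 10 other sensors, 8 cytokine genes and their regulators, or 4 necroptosis-linked genes had a region gained in both. These held 46, 37 and 10 regions, too few to tell none from the 1.1% of all regions.

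NEK7 binds NLRP3 and is needed for its assembly. Its gained region (chromosome 1, 138559502 to 138560182) spanned 605 and 450 bases in KO LPS libraries and 542 and 569 in WT LPS libraries, with no call untreated. TLR4 is the cell surface receptor of LPS, and its gained region (chromosome 4, 66837573 to 66838259) spanned 444 and 597 bases in KO LPS and 605 and 406 in WT LPS libraries. In Nfkb1, the gene of the NF-kB subunit p105/p50, the regions spanned 720 and 519 bases in KO LPS and 700 and 574 in WT LPS libraries (chromosome 3, 135640063 to 135640802), and 179 and 393 in KO LPS and 530 and 799 in WT LPS libraries (135648252 to 135649242). The second Nfkb1 region was narrower in both KO than in both WT libraries, and the values of the other 3 regions overlapped between genotypes.

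Gbp7 belongs to the interferon-induced GTPases that act on bacteria and their LPS. Its region spanned 323 and 242 bases in KO LPS and 357 and 321 in WT LPS libraries. At Ninj1, whose protein ruptures the membrane in the last step of lytic death, a region 9.27 kb from the gene spanned 459 and 179 bases in KO LPS and 466 and 195 in WT LPS libraries. Both regions were called in no untreated library.

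Losses in both genotypes were found at Irf8, a transcription factor of the macrophage lineage, and at Ripk1, a kinase of cell death signalling. The Irf8 regions were called in no LPS library, against 221 and 220 bases (chromosome 8, 120745362 to 120745608) and 251 and 340 bases (120750700 to 120751055) in KO untreated libraries. In WT untreated libraries they spanned 235 and 198 bases and 293 and 287 bases. The Ripk1 region (chromosome 13, 34032021 to 34032493) was called in no LPS library, against 225 and 215 bases in KO untreated and 365 and 473 in WT untreated ones. With lists cut to their widest 27013 peaks, none of the 3 met the rule.

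By genotype, 9 of the 296 pathway regions were gained with LPS in KO (3.04%, beside 2.56% of all regions) and 19 in WT (6.42%, beside 3.96%). Losses numbered 7 in KO (2.36%, beside 4.07%) and 20 in WT (6.76%, beside 5.06%). With LPS, 5 were KO-only (1.69%, beside 2.03%) and 14 WT-only (4.73%, beside 3.17%), and untreated 0 were KO-only (beside 1.6%) and 4 WT-only (1.35%, beside 2.23%). WT counts exceeded KO counts over all regions too (2763 WT-only and 1771 KO-only with LPS), and the KO LPS lists were the shortest. The part of list length in this was not tested.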

How the data were processed

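Chromatin accessibility was measured in 8 libraries (4 groups of 2). The authors deposited 1 list of peak positions per library on GRCm38 (mm10), called separately, with no score, count or p-value, so depth is unknown, and no call at a region does not show closed chromatin. The submitters' processing notes name MACS2 2.1.1, Bowtie2 2.3.0, bcl2fastq 2.17.1.14 and Picard. Settings, duplicate handling and cut-site shifts, which decide what weak peaks enter a list, are not stated in these sources. Starts were read as counting from 0 and are printed counting from 1.

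Peaks on 21 chromosomes were merged (at least 1 base) and assigned to the nearest gene body in the GRCm38.p6 table. Called bases are the bases of a region covered by a library's peaks. A region was gained with LPS in a genotype when both LPS and neither untreated library called it, lost in the reverse case, and KO-only or WT-only by the same rule between genotypes. Log2 called bases of regions called in all 8 libraries were fitted by group with limma 3.58.1 (R 4.3.3), with Benjamini-Hochberg adjustment over all regions and a threshold of 0.05. Gene sums were compared 4 against 4 by two-sided exact permutation, adjusted over all genes. The limma script was tested on simulated data.

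Named were all 8 genes, their regions at a gene end called everywhere or with a gained, lost or genotype-only pattern or an adjusted p under 0.05, and the pathway genes with a region gained or lost in both genotypes. The values of 1 such region are not reported here. Further regions of the 8 genes were described after their values were seen. The members and gene lists were chosen with earlier results of these data known. Alternatives were other overlap, distance and tie rules, equal and stricter lists, other fits, and leaving out each library. The scaling to covered sequence, the trended fit and the alternatives for gene sums and pathway counts were chosen after seeing the data.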

Additional observations from a re-analysis of the deposited data

Results flagged for a closer look

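A region inside Aim2 (173426293 to 173426817) had LPS values on opposite sides of the untreated ones in KO and WT. All 56 regions and the sums of the 8 genes were searched for this order. The share of all regions that show it was not counted. It spanned 362 and 440 bases in KO LPS libraries, against no call and 344 in KO untreated ones, and 349 and 374 in WT LPS libraries, against 382 and 505 in WT untreated ones. KO values with LPS lay above both KO untreated values and WT values with LPS below both WT untreated values. The LPS difference was 311 bases more in KO than in WT, and this difference was not tested, since KO untreated replicate 1 had no call. That library entered the 311 bases as 0. Groups of 2 libraries are too small for a check of single outlying libraries.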

How the results depend on the processing

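The lists hold no heights, so depth and weak signal set the limits, and groups of 2 allow no test of a call pattern. No result changed direction past its threshold. With 50% of a region covered, KO-only and WT-only untreated regions and KO-only regions with LPS numbered 1 each, and regions of the wider pathway lost in both genotypes numbered 5. With lists of equal length there were 0 losses in KO, 8 gains in WT and 1 KO-only untreated region. With stricter lists (the widest 27013 peaks) there were 2 losses in KO, 2 in both genotypes, 1 region each KO-only and WT-only untreated and WT-only with LPS, and 3 pathway gains and 0 pathway losses in both genotypes. The stricter lists also gave 2 gains in both genotypes, at regions other than those gained with the full lists. Leaving out tied regions gave 1 loss in WT and 1 gain in both genotypes. Leaving out each library in turn gave 3 to 7 gains and 1 to 4 losses in KO, 4 to 11 gains and 2 to 4 losses in WT, and 2 to 3 gains and 0 to 1 losses in both. It gave 0 to 3 KO-only and 0 to 2 WT-only untreated regions, 0 to 2 KO-only and 0 to 3 WT-only regions with LPS, and 7 to 11 pathway gains (11 without KO LPS replicate 2) and 3 to 7 losses (7 without KO untreated replicate 1 or KO LPS replicate 1, 6 without KO LPS replicate 2). Fewer libraries make these rules easier to meet. In limma, leaving out a library left 0 to 0 narrower regions among the 27, and over all 36009 regions 69 narrower without KO LPS replicate 1 and 0 in the other 7 cases, against 514. Fitting all 87260 regions with 100 bases added gave 2 wider regions, beside 2.95% of all regions, and 2 narrower, beside 3.93%. The wider ones were those gained inside Il18 and Nlrp3, whose untreated values are all 0, so this restates their calls. The narrower ones were the same Aim2 regions, and this fit called the Aim2 start in KO (adjusted p = 0.02) and the downstream region in WT (adjusted p = 0.0448). Same-numbered libraries did not deviate together (r between -0.001 and 0.054). With a replicate block, 0 regions were narrower by either numbering, with adjusted p of 0.0548 (replicate number) or 0.116 (codes in the titles, each borne by 1 LPS and 1 untreated library and not said to mark 1 animal) at both Aim2 regions, and 0 of all 36009 regions passed. The cause was not tested.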
